A study of Mus musculus with 10 samples.

Results

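Hematopoietic stem cells (HSCs) hold their place in bone marrow, and find it again after transplantation, through a small set of surface receptors. The account below covers 10 genes of this kind, taken from a fixed list of names: Cxcr4, Itga4, Itga5, Itga6, Itgal, Itgb1, Itgb2, Cd44, Selplg and Cd47. All 10 were present among the 20270 genes of the deposited table, and all 10 passed the filter on low values that left 15143 genes for testing.

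CXCR4 is the receptor for CXCL12, the chemokine that marrow stroma releases to attract and retain stem cells. Integrins are pairs of an alpha and a beta chain that grip matrix or other cells. Itga4 with Itgb1 encodes VLA-4, which binds VCAM-1 and fibronectin, Itga5 with Itgb1 the fibronectin receptor VLA-5, Itga6 a laminin receptor, and Itgal with Itgb2 the ICAM receptor LFA-1. Selplg encodes PSGL-1, the carrier of selectin ligands on which cells roll along vessel walls. CD44 binds hyaluronan and can also carry selectin ligands, and CD47 signals to macrophages through SIRPα that a cell should not be engulfed.

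The 10 libraries were made from HSCs that had been sorted by flow cytometry from the marrow of primary recipient mice, strain C57BL/6, given lineage-depleted (Lin-) bone marrow cells. Donor cells were Id1-/- (called KO here, as labelled) or Id1+/+ (WT), and cells of each genotype came in a condition labelled normal (3 libraries, A to C) and one labelled stressed (2 libraries, A and B). Every group had been transplanted, so no untransplanted HSCs serve as a reference. The labels do not define normal or stressed, do not give the sort markers, the age or the genotype of the recipients, and do not say whether a library is 1 mouse or a pool. For the time from transplant to harvest the sample labels say 4 weeks and the series' design text says 6. P-values below measure the spread between these libraries, which may be technical.

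Levels are log2 CPM, the base-2 logarithm of counts per gene after scaling for sequencing depth and quantile normalization, and a difference of 1 is a doubling. Depth, estimated from the steps between low values, was 25700000 to 33000000 reads per library. Quantile normalization gives all libraries nearly the same distribution of values, so these depths, and the read numbers derived from them below, are approximate. The targeted gene Id1, an inhibitor of E protein transcription factors, stood at log2 levels of 3.08 to 3.72 in the 5 KO-labelled libraries and 0.36 to 2.13 in the 5 WT-labelled ones. The gene named as deleted was thus higher in the libraries labelled KO, and deleted bases cannot be seen in gene-level values. KO and WT below mean libraries so labelled, and each direction between genotypes rests on those labels. In a principal component analysis library A of the KO normal group stood apart on the third component (score -100.04, against -12.90 to 31.3 in the others), and library A of the WT stressed group lay furthest out on the second (-83.0). Some differences printed below for the 10 genes moved by over 1.5 times without either library, or had their call changed. Many of these are given both ways. Others are given once, so a value printed once is not thereby a stable one.

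Marker genes of HSCs were all present: 14 of 14 exceeded 1 CPM in every library, with summed levels of 5779 to 6092 CPM in WT normal, 4959 to 5297 in KO normal, 4846 to 4978 in WT stressed and 4494 to 4597 in KO stressed HSCs. Megakaryocyte markers (6 of 6 above 1 CPM in every library) summed to 895 to 918, 781 to 830, 1294 to 1318 and 1382 to 1385 CPM in the same order, so they were higher in stressed libraries. B and plasma cell markers (1 of 8 measured above 1 CPM throughout) summed to 40.1 to 54.7 CPM outside the KO stressed group and to 314 and 331 CPM in its libraries, mostly immunoglobulin transcripts such as Igkc (mean 132.9 CPM) and Ighg2b (118.6 CPM, with 0 reads in the other 8 libraries). Granulocyte and monocyte markers (3 of 11 above 1 CPM throughout) summed to 341 to 381, 433 to 474, 400 to 422 and 389 to 394 CPM, mostly Lyz2 and Prtn3, and Mpo averaged 15.4 and 24.4 CPM in KO normal and KO stressed against 3.39 and 4.54 in the WT groups. Erythroid markers (4 of 8) summed to 167 to 190, 183 to 196, 78.8 to 81.4 and 114 to 123 CPM, so they were lower in stressed libraries, mostly through Car1. T cell markers (1 of 4, with Cd2 at 0 reads in 8 libraries) summed to 8.84 to 21.6 CPM, and stromal and endothelial markers (3 of 7, with Cxcl12 and Cdh5 at 0 reads in 7 libraries) to 107 to 138. In bulk RNA, fewer cells of a type and less RNA per cell cannot be told apart.

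Compared between genes after division by exon length, Cd47 and Itgb1 were the most abundant of the receptor transcripts. Cd47 had a median of 110.5 CPM per kilobase over the 10 libraries and Itgb1 103.7, and Cd47 was the higher in 10 of 10 libraries although their ranges overlapped. Selplg followed at 31.1. Itgb2 (15.1 to 41.4), Itga6 (21.4 to 30.7) and Itga5 (19.6 to 33.3) could not be ranked against each other: Itgb2 exceeded Itga6 in 4 of 10 libraries, Itga6 exceeded Itga5 in 5 of 10, and with the longest transcript as the length Itgb2 moved from the fourth place to the sixth. Cd44 (14.9) and Itga4 (14.3) also changed places among libraries. Cxcr4, at 5.46 CPM per kilobase, and Itgal, at 3.38, were the 2 lowest in every library, and still rested on an estimated 246 to 460 and 199 to 782 reads per library. The transcript of the chemokine receptor was thus scarce in these sorted cells beside that of the shared beta chain.

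The 10 genes are spread over the genome (mm10, GENCODE vM21). Itga6 (chromosome 2, 71745616 to 71858416), Itga4 (chromosome 2, 79255426 to 79333123) and Cd44 (chromosome 2, 102811141 to 102901665) share a chromosome with Id1; their annotated start coordinates lie 80990635, 73480825 and 49925110 bases away from the start of Id1. Itgb2 lies on chromosome 10 (77530252 to 77565708), Itgal on chromosome 7 (127296260 to 127335138), Itgb1 on chromosome 8 (128685654 to 128733200), Cd47 on chromosome 16 (49800533 to 49915010), Cxcr4 on chromosome 1 (128588199 to 128592293), Itga5 on chromosome 15 (103344286 to 103366763) and Selplg on chromosome 5 (113818536 to 113832644).

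Because Id1 acts by keeping E proteins off E-box DNA, the 250 bases upstream of the transcription start were searched for 2 E-box forms that E proteins bind, CAGCTG and CAGGTG, on both strands. RefSeq's promoter table (GRCm38.p6, the same build as mm10) held 6 of the 10 genes, and 27.7% of its 32851 upstream windows carried at least 1 such E-box. Itga6, Itgal, Itgb2 and Selplg have no entry there. Of the 6 genes only Itga4 had one, a CAGCTG whose first base lies 125 bases before the start. The windows of Itga4 and Cxcr4 are shown because, among the 6 genes, these had the differences between genotypes with the smallest p-values, with any E-box in capitals; each reads 5′ to 3′ toward its gene.
Itga4, chr2:79255176-79255425, plus strand: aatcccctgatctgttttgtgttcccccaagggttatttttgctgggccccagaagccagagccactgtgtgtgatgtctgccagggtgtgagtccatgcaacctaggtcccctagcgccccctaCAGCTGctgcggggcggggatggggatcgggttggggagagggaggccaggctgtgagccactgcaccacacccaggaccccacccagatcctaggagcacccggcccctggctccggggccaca
Cxcr4, chr1:128592300-128592549, minus strand: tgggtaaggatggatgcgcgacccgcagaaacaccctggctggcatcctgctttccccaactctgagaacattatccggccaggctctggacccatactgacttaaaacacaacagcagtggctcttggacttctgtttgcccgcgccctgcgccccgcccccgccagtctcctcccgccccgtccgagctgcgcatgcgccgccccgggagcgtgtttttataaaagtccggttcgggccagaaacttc
In Cxcr4 not even the general form CANNTG occurs in this window, a form present in 66.2% of the windows in the table. These matches are letters only and say nothing of binding.

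How stressed HSCs differed from normal ones was asked first over both genotypes, as the mean of the WT and the KO difference. All 10 receptor genes had a positive mean difference, against 50.5% of all genes tested, with a median of 0.13 against 0.0027 for all genes. Those of Itga4 (0.016, SE 0.059) and Cxcr4 (0.070, SE 0.16) were smaller than their SE. Each of these 2 kept its sign in 17 of 20 alternatives. Within a genotype 8 of 10 were positive, in WT (51.1% of all genes) and in KO (50.1%). Itga4 and Itga6 were negative in WT, and Cxcr4 and Selplg in KO. In the averaged comparison Itgb2 and Cd47 rose past the threshold (limma, adjusted p under 0.05), 2 of 10 genes where 8.29% of all genes tested were called. Of the remaining 8 genes, Itga6, Itgal and Itgb1 had unadjusted 95% intervals above 0 without passing the adjusted threshold, and the other 5 had intervals that include 0.

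**Figure D1:**
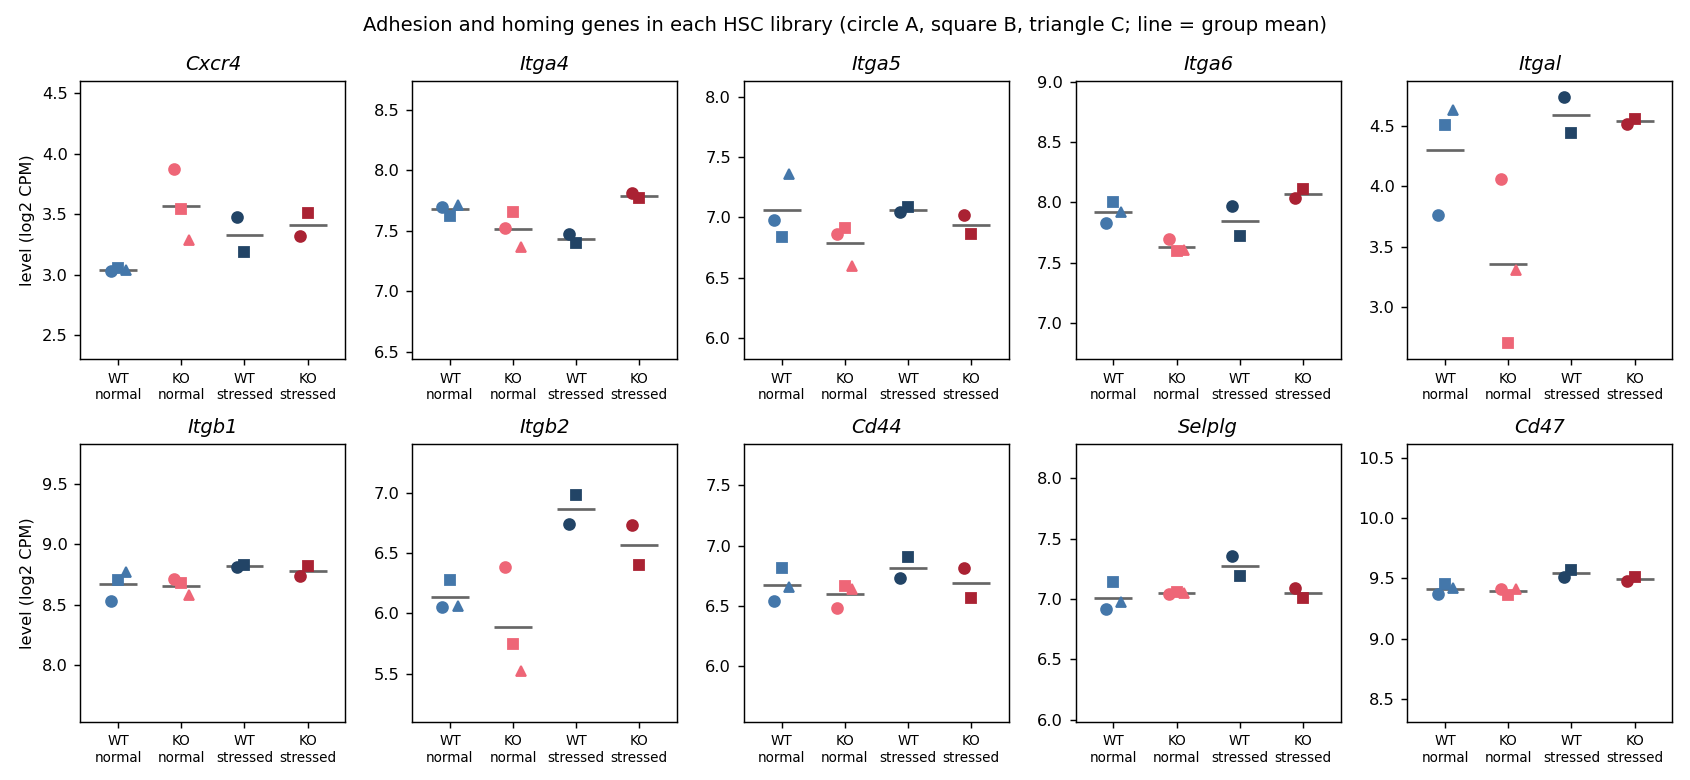
Level of each of the 10 genes in each library (vertical axis, log2 CPM; every panel spans the same height in log2 units) by group (horizontal axis), with symbols for library letters and a line at the group mean. Itgb2 and Cd47 are higher in all 4 stressed libraries than in all 6 normal ones, and the group means of Itga4 and Itga6 are lower in KO than in WT in the normal condition and higher in the stressed one.

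Itgb2, the beta chain of the leukocyte integrins, had the larger of the 2 rises in the averaged comparison. Its log2 level was 6.06, 6.28 and 6.06 in the WT normal libraries (A, B, C) and, in this order, 6.38, 5.74 and 5.53 in the KO normal ones. The stressed libraries had 6.74 and 6.98 in WT and 6.73 and 6.40 in KO. Every stressed library thus lay above every normal one, though KO stressed library B and KO normal library A were close. The mean rise was 0.70 (SE 0.15, limma adjusted p = 0.014), or 1.63-fold with a 95% interval of 1.30 to 2.05. It was of similar size in each genotype, 0.73 (SE 0.21, limma adjusted p = 0.098) in WT and 0.68 (SE 0.21, limma adjusted p = 0.11) in KO, and neither passed on its own. Without library A of the KO normal group, which stands apart, the KO difference was 0.93 (limma adjusted p = 0.0076) and the mean rise 0.83, and the WT difference of 0.73 also passed (limma adjusted p = 0.016). It passed in 16 of 20 alternatives, and the losses included the fits without WT stressed library B (limma adjusted p = 0.059) or KO stressed library A (0.077) and the fit with no trend in the variance (0.072). Megakaryocyte markers were higher and erythroid markers lower in the same stressed libraries, as given above, and their part in the result was not tested.

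Itgal, the alpha chain that pairs with Itgb2 in LFA-1, had the widest range of the set, 2.04 on the log2 scale. It stood at 3.77, 4.51 and 4.63 in WT normal libraries and at 4.06, 2.70 and 3.31 in KO normal libraries. In stressed libraries it stood at 4.74 and 4.44 in WT and at 4.52 and 4.56 in KO. The 3 KO normal libraries thus spread widely and lay below all 4 stressed ones, while WT normal libraries B and C lay within the stressed range. The difference between stressed and normal was 1.18 (SE 0.36, limma adjusted p = 0.099) in KO HSCs and 0.29 (SE 0.36, limma adjusted p = 0.74) in WT. Without KO normal library A the KO difference was 1.53 and passed (limma adjusted p = 0.022), and without KO normal library B it was 0.85. The WT difference was 0.022 without WT normal library A and 0.45 without WT normal library C, and 0.14 or 0.44 without WT stressed library A or B. Itgam, the alpha chain that pairs with Itgb2 in myeloid cells, stayed between 0.90 and 2.23 in all libraries.

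Cd47 moved little but evenly. Its levels were 9.37, 9.45 and 9.42 in WT normal, 9.42, 9.36 and 9.42 in KO normal, 9.52 and 9.57 in WT stressed and 9.48 and 9.51 in KO stressed libraries. All 4 stressed libraries stood above all 6 normal ones. The mean rise was 0.11 (SE 0.030, limma adjusted p = 0.038), or 1.08-fold with a 95% interval of 1.03 to 1.14. It passed in 9 of 20 alternatives, and leaving out any library other than WT normal B or KO normal A ended the call (adjusted p up to 0.13). Its value in KO normal libraries A and C is identical in the deposited table, as happens for genes of equal rank after quantile normalization.

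Itgb1, the beta chain shared by VLA-4, VLA-5 and the laminin receptor, had the next most even levels. They ran from 8.53 to 8.77 in WT normal, 8.58 to 8.71 in KO normal, 8.81 to 8.83 in WT stressed and 8.74 to 8.82 in KO stressed libraries. Within each genotype the stressed libraries lay above the normal ones, with a mean difference of 0.14 (SE 0.050, limma adjusted p = 0.13). For this mean difference, a rise of more than 1.19-fold lies outside the unadjusted 95% interval. The upper bounds within a genotype were 1.24-fold in WT and 1.21-fold in KO.

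Itga6, the laminin-binding alpha chain, was the 1 of 10 genes called between stressed and normal HSCs within a genotype, in KO, where 4.50% of all genes were called. Its level was 7.69, 7.60 and 7.61 in KO normal and 8.03 and 8.11 in KO stressed libraries. In WT normal libraries it was 7.83, 8.01 and 7.92, and in WT stressed libraries 7.97 and 7.73. The KO stressed libraries were the highest of all 10 and the KO normal libraries the lowest. The WT difference was -0.07 (SE 0.084, limma adjusted p = 0.73), and -0.19 or 0.051 without WT stressed library A or B. The rise in KO was 0.44 (SE 0.084, limma adjusted p = 0.013), or 1.36-fold. The call was lost without KO stressed library A (limma adjusted p = 0.065) or B (0.13), which leaves 1 library in that group, and with no trend in the variance (0.091). Immunoglobulin transcripts were high in the same KO stressed libraries, and their part in the result was not tested.

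Within WT HSCs 0 of 10 genes were called by limma between stressed and normal, where 3.30% of all genes were, and 4 had an unadjusted p under 0.05 (Itga4, Itgb2, Selplg and Cd47), as did 16.8% of all genes. In KO HSCs 5 had one, Itga6 among them, as did 17.9% of all genes. Selplg, whose product carries selectin ligands, stood at 6.91, 7.14 and 6.97 in WT normal and 7.36 and 7.19 in WT stressed libraries, the latter higher by 0.27 on average (SE 0.089, limma adjusted p = 0.14). In KO libraries it hardly varied, from 7.05 to 7.06 in normal and from 7.01 to 7.09 in stressed, with a difference of -0.0021 (SE 0.089). Cd44 stood between 6.48 and 6.82 in the normal and between 6.56 and 6.90 in the stressed libraries, a mean difference of 0.12 (SE 0.083, limma adjusted p = 0.44). Itga5 ranged from 6.60 to 7.36 in normal libraries and from 6.86 to 7.09 in stressed ones, a mean difference of 0.076 (SE 0.10, limma adjusted p = 0.73). For these genes the libraries of both conditions overlapped, except for Selplg in WT.

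**Figure D2:**
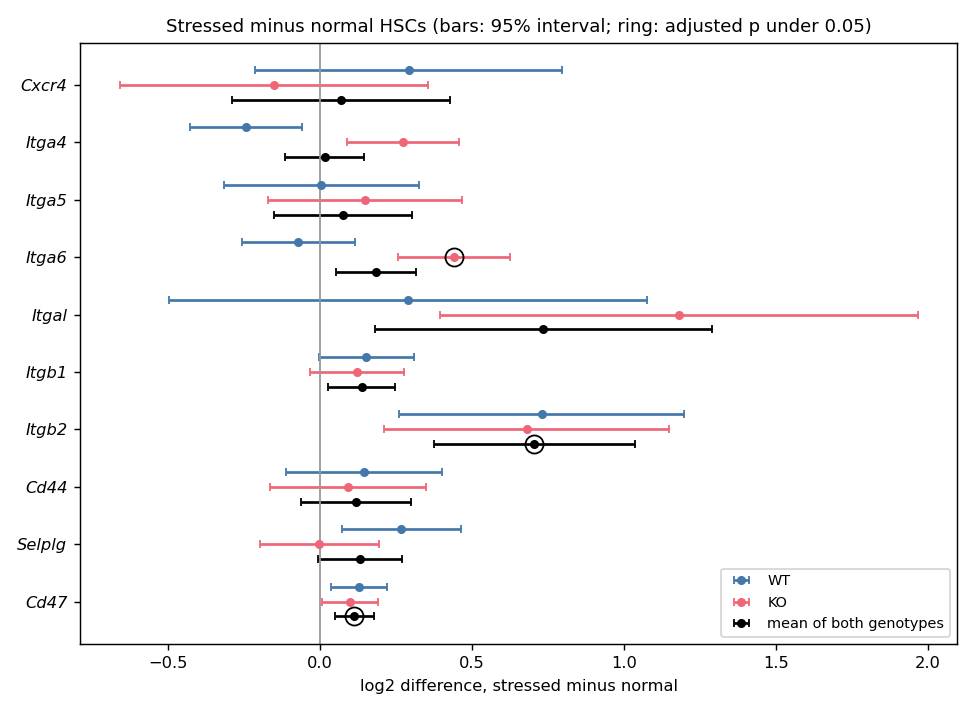
Difference between stressed and normal HSCs (horizontal axis, log2) for each gene (vertical axis) in WT, in KO and as the mean of both, with 95% intervals from limma that are not adjusted for the number of genes, and rings where the adjusted p was under 0.05. The mean differences of Itgb2 (0.70) and Cd47 (0.11) and the KO difference of Itga6 (0.44) carry rings.

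Libraries labelled Id1-/- and Id1+/+ were compared within each condition. In normal HSCs limma called 0 of 10 genes, where 1.56% of all genes were called, and 3 had an unadjusted p under 0.05 (Cxcr4, Itga6 and Itgal), beside 13.9% of all genes. In stressed HSCs it called 0 of 10, where 0.145% of all genes were called, and 3 had an unadjusted p under 0.05 (Itga4, Itga6 and Selplg), beside 8.88% of all genes. Averaged over the conditions it also called 0 of 10 where 1.07% of all genes were called, and 0 had an unadjusted p under 0.05, beside 13.1% of all genes. The median difference of the 10 genes was -0.12 in normal and -0.049 in stressed HSCs, beside -0.0083 and 0 for all genes, and 8 and 7 of the 10 differences were below 0. The genotype and the stress comparisons share libraries, so the values below are the same measurements seen from another side.

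Cxcr4 was close to constant in WT normal libraries, at 3.03, 3.05 and 3.04, and stood at 3.87, 3.54 and 3.29 in KO normal ones. All KO normal libraries were above all WT normal ones, while the stressed groups overlapped, at 3.48 and 3.19 in WT and 3.32 and 3.51 in KO. The difference in normal HSCs was 0.53 (SE 0.21, limma adjusted p = 0.28), or 1.44-fold with an unadjusted 95% interval of 1.05 to 1.97. It was 0.37 without KO normal library A, the highest of the 10. In stressed HSCs it was 0.083 (SE 0.25, limma adjusted p = 0.96), and 0.23 or -0.060 without WT stressed library A or B.

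Itga4, the alpha chain of VLA-4, stood at 7.70, 7.63 and 7.71 in WT normal libraries and at 7.53, 7.65 and 7.37 in KO normal ones. In the stressed condition the order was the other way round, with 7.47 and 7.40 in WT and 7.81 and 7.77 in KO. The KO stressed libraries were the 2 highest of the 10, and the normal groups overlapped. The difference was 0.36 (SE 0.092, limma adjusted p = 0.28) in stressed and -0.16 (SE 0.075, limma adjusted p = 0.37) in normal HSCs, the latter -0.088 without KO normal library C. Stressed minus normal came to -0.24 (SE 0.084, limma adjusted p = 0.16) in WT and 0.27 (SE 0.084, limma adjusted p = 0.10) in KO.

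Itga6, too, was highest in KO stressed HSCs, but its lowest group was KO normal, where that of Itga4 was WT stressed. It was lower in all KO normal than in all WT normal libraries (-0.29, SE 0.075, limma adjusted p = 0.10) and higher in both KO stressed than in both WT stressed ones (0.23, SE 0.092, limma adjusted p = 0.52). The latter value was 0.35 without WT stressed library A and 0.10 without library B. Itgal differed by -0.94 (SE 0.32, limma adjusted p = 0.21) in normal HSCs, with KO normal library A overlapping the WT range, and by -0.051 (SE 0.39, limma adjusted p = 0.99) in stressed ones. Without KO normal library A the normal difference was -1.29, and without KO normal library B it was -0.62. The stressed difference of Itgal was 0.10 without WT stressed library A and -0.20 without library B. Selplg differed by -0.23 (SE 0.098, limma adjusted p = 0.53) in stressed HSCs and by 0.042 (SE 0.080) in normal ones. Without WT stressed library A the former was -0.15. Itgb2, Itga5, Cd44, Itgb1 and Cd47 had differences between -0.30 and -0.011 in both conditions, with limma adjusted p-values of 0.39 or above. For Itgb2 in normal HSCs the value was -0.25, and it was -0.50 without KO normal library A and -0.068 without library C; in stressed HSCs it was -0.30, and -0.46 to -0.13 with a library left out. For Itga5 in normal HSCs it was -0.27, and -0.12 without WT normal library C.

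**Figure D3:**
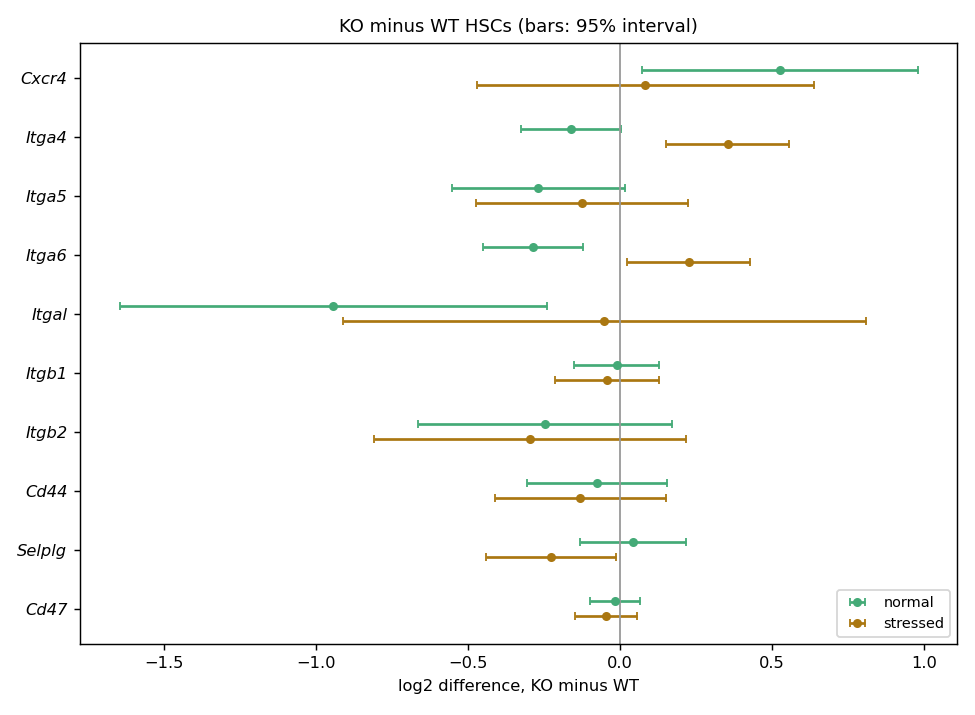
Difference between KO and WT HSCs (horizontal axis, log2) for each gene (vertical axis) in the normal and in the stressed condition, with unadjusted 95% intervals from limma. No gene passed the adjusted threshold, and Itga4 and Itga6 lie below 0 in normal and above 0 in stressed HSCs.

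The difference of these differences, the interaction, tests directly whether genotype and condition act together. Limma called 0 of 10 genes, where 0.0198% of all genes were called (3 genes), and 2 had an unadjusted p under 0.05, beside 9.15% of all genes. These 2 were Itga4 (0.52, SE 0.12, limma adjusted p = 0.22) and Itga6 (0.51, SE 0.12, limma adjusted p = 0.22), which ranked 74 and 81 by p among the 15143 genes. Leaving out each library in turn kept the Itga4 value between 0.44 and 0.59 and the Itga6 value between 0.39 and 0.63. Both chains pair with Itgb1, whose interaction was -0.032 (SE 0.10). For Itgal it was 0.89 (SE 0.51, limma adjusted p = 0.61) and for Cxcr4 -0.44 (SE 0.33, limma adjusted p = 0.71), each with a 95% interval that includes 0. Without KO normal library B the first was 0.56, and without KO normal library A the second was -0.29.

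Expressed as the log2 ratio of alpha to beta chain per kilobase, the balance of the VLA-4 transcripts was lowest in WT stressed HSCs. Itga4 to Itgb1 was -2.77 ± 0.13 (SD, n = 3) in WT normal, -2.92 ± 0.10 (SD, n = 3) in KO normal, -3.16 ± 0.061 (SD, n = 2) in WT stressed and -2.76 ± 0.087 (SD, n = 2) in KO stressed HSCs. Both WT stressed libraries lay below the other 8. Itga6 to Itgb1 was -1.90 ± 0.084 (SD, n = 3), -2.17 ± 0.056 (SD, n = 3), -2.12 ± 0.18 (SD, n = 2) and -1.85 ± 0.0027 (SD, n = 2) in the same order. Itga5 to Itgb1 stayed between group means of -2.14 and -1.88, with overlapping libraries. Itgal to Itgb2 ranged from -4.15 to -2.54 over the libraries, and its lowest group mean was that of KO normal HSCs (-3.63 ± 0.45, SD, n = 3). No test was made of these ratios, and messages say nothing of how many receptors of each pair reach the surface.

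**Figure D4:**
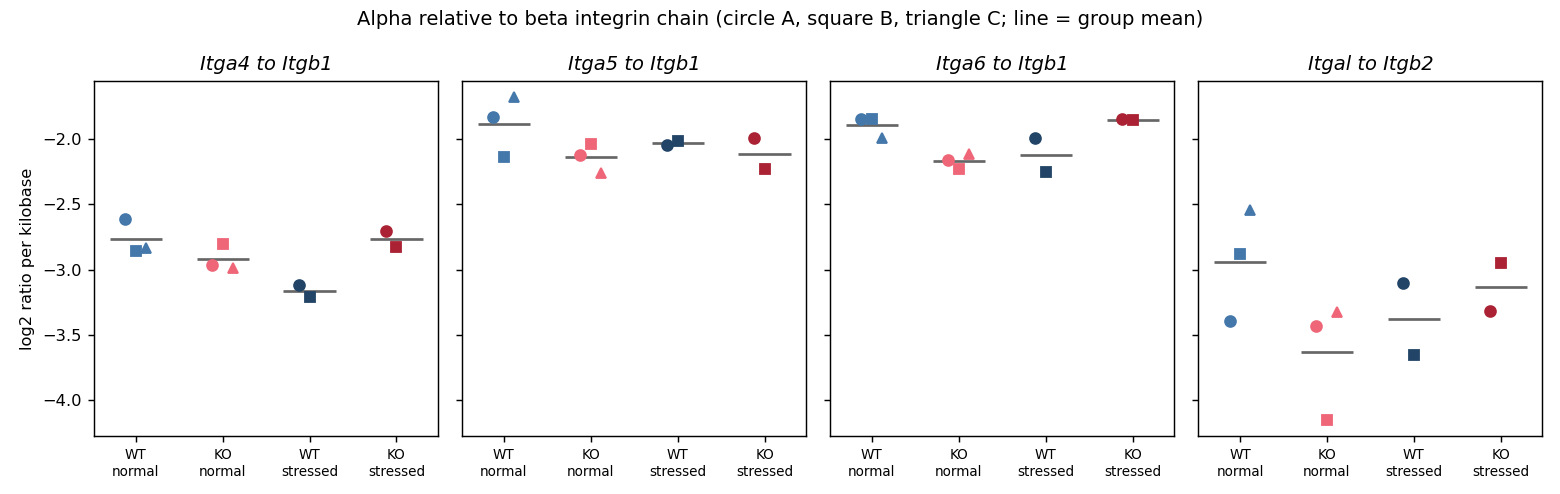
Log2 ratio of each alpha chain to its beta chain per kilobase of exon (vertical axis) in each library by group (horizontal axis), with a line at the group mean. The Itga4 to Itgb1 ratio is lowest in the 2 WT stressed libraries, and the Itga6 to Itgb1 ratio is highest, on average, in WT normal and KO stressed HSCs.

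Over the 10 libraries the 2 LFA-1 chains, Itgal and Itgb2, had a Pearson correlation of 0.75 and Itga4 and Itga6 one of 0.61, while the highest among pairs of the 10 genes was that of Itgb2 and Cd47 (0.83). The genes most like each receptor over the same libraries, among those with a mean log2 level above 2, were Rps4x, Lrrc42 and Hikeshi for Cxcr4 (r from 0.94 to 0.95), Ppp6r3, Nsun6 and Gm37818 for Itga4 (0.89 to 0.94) and Slc7a5, E2f2 and Hnrnpdl for Itga6 (0.91 to 0.93). For Itgal they were Ap1s2, Thnsl2 and Pes1 (0.91 to 0.94), for Itgb2 Sssca1, Gabpa and Slfn9 (0.92 to 0.96), for Itgb1 Gm8113, Dr1 and Gm14295 (0.93 to 0.97) and for Itga5 Cpd, Camk2b and Npepps (0.85 to 0.91). Selplg was most like Arpc2, P2rx7 and Ssbp2 (0.89 to 0.96), Cd44 like Mfsd14b, Prkab1 and Luzp1 (0.90 to 0.93) and Cd47 like Pdcd4, Ctcf and Kif20b (0.95 to 0.96). These values describe 10 libraries that share groups and a normalization, and with 11090 genes compared high values occur in any such ranking.

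Other genes of adhesion and homing were taken from 6 lists by role, and 123 of them were tested. Between stressed and normal HSCs, averaged over genotypes, 14 rose and 10 fell, where 8.29% of all genes were called (596 higher and 660 lower). In WT 12 rose and 2 fell (all genes 3.30%), and in KO 9 rose and 6 fell (all genes 4.50%). In KO against WT, 2 were higher and 2 lower in normal HSCs (all genes 1.56%). In stressed HSCs 0 were called by limma (all genes 0.145%), and 15 had an unadjusted p under 0.05 (all genes 8.88%). The shares of 8.29% for stress and 1.56% for genotype are also those to read the counts of the single lists below against.

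Genes that switch integrins on and tie them to actin included 6 that rose and 2 that fell among 27 tested (8.29% of all genes called) in the averaged comparison of stressed with normal HSCs. Fermt3, which encodes kindlin-3, the activator that binds beta chain tails in blood cells, rose by 0.34 (SE 0.027, limma adjusted p = 2.9e-05). Rap1b, a small GTPase upstream of talin, rose by 0.48 (SE 0.051), the adaptor gene Fyb by 0.72 (SE 0.081) and Lims1, an adaptor of integrin-linked kinase, by 0.40 (SE 0.043). These 4 were also called in WT and in KO alone. The others called were Fyn and Lyn, both kinases, which rose by 0.30 and 0.39, and Pxn and Ptk2b, of focal adhesions, with differences of -0.33 and -0.32. With each of the 10 libraries left out in turn, the averaged calls of Fermt3, Rap1b, Fyb and Lims1 held throughout, those of Pxn and Ptk2b in 8 fits, that of Lyn in 6 and that of Fyn in 5; without WT stressed library A, Fyn (adjusted p 0.097), Pxn (0.070) and Ptk2b (0.077) did not pass. Within a single genotype, the Lims1 call in WT was lost without WT normal library A, B or C, and also without WT stressed library A or B. Those of Rap1b in WT and Fyb in KO also did not hold in every fit with a library left out. The list's median averaged difference was 0.082. Megakaryocyte markers were higher in the same stressed libraries, as given above, and their part in the rises of this list was not tested.

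Tln1 encodes talin, the protein that engages beta chain tails together with kindlins. It was the 1 of 27 genes of that list called between genotypes in normal HSCs, and it was lower in KO (-0.35, SE 0.052, limma adjusted p = 0.0050). Its levels were 10.26, 10.30 and 10.36 in WT normal and 9.84, 10.05 and 9.97 in KO normal libraries, with no overlap, and the call held with each library left out in turn (-0.30 without KO normal library A).

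Among the other integrin subunits 1 of 15 tested rose and 2 fell with stress, averaged over genotypes, beside 8.29% of all genes called. Itga2b, the platelet and early stem cell alpha chain, rose by 0.58 (SE 0.045, limma adjusted p = 2.1e-05). It is also one of the megakaryocyte markers, whose sum was higher in the same libraries. Itga9, a further partner of Itgb1, fell by 1.32 (SE 0.19, limma adjusted p = 0.0014), and Itgb5 by 1.60 (SE 0.25, limma adjusted p = 0.0027). Itgb5 differed by -2.39 in KO, which passed, and by -0.81 in WT, which did not (limma adjusted p = 0.28); its interaction had an adjusted p of 0.39. Itga9 and Itgb5 were low to moderate, at 2.18 to 4.47 and 0.46 to 3.54.

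From the list of selectins and selectin ligand synthesis, Selp rose with stress and no gene fell. Selp, encoding P-selectin, a binding partner of PSGL-1, had levels of 4.40 to 5.37 in normal and 6.48 to 6.85 in stressed libraries (a rise of 1.71, SE 0.17, limma adjusted p = 0.00013). No stressed library overlapped a normal one. P-selectin is also a platelet protein, and the megakaryocyte markers were higher in the same libraries; their part in the result was not tested.

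Among 18 other surface adhesion molecules 3 rose and 3 fell, beside 8.29% of all genes called. Cd34, Cd9 and Cd53 rose by 0.24, 0.43 and 1.17, the last 2 being tetraspanins, which organize integrins in the membrane. Their relatives Cd82 and Cd81 fell by 0.59 and by 0.22, and the junctional adhesion gene Jam3 by 0.67, a call that held with 2 of 10 libraries left out in turn. In the same fits the call of Cd81 held in 8 of 10 and that of Cd82 in 10 of 10. Cd82 differed by -0.92 in KO, which passed, and by -0.26 in WT (limma adjusted p = 0.33), with an interaction adjusted p of 0.28. Of 15 niche ligands, matrix genes and proteases, Hmmr rose by 1.23 (SE 0.10, limma adjusted p = 2.9e-05). It encodes a hyaluronan-binding protein that also acts on the mitotic spindle. Thbs1, whose matrix protein binds CD47, fell by 0.76 with stress (SE 0.16) and was higher by 1.001 in KO than in WT normal HSCs (SE 0.21, limma adjusted p = 0.035). The second call held with 2 of 10 libraries left out in turn, and without KO normal library A it was lost (1.04, limma adjusted p = 0.086). The first was lost without WT stressed library A (-0.71) or either KO stressed library. Within a genotype the fall of Thbs1 was called in KO (-1.002, SE 0.23, limma adjusted p = 0.032) and not in WT. Without KO normal library A or B that KO call was lost. The averaged fall and the genotype difference both draw on the KO normal libraries, where Thbs1 stood at 5.79, 6.25 and 5.57.

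In the list around the chemokine receptor, 1 of 30 genes rose and 2 fell with stress, beside 8.29% of all genes called. Arrb2, a beta-arrestin that binds activated chemokine receptors, rose by 0.49 (SE 0.10, lost without WT stressed library A, limma adjusted p = 0.052), Rac2, a GTPase of HSC migration, fell by 0.23 (SE 0.051, held in 7 of 10 fits with a library left out), and Dpp4, a peptidase that can inactivate CXCL12, fell by 0.67 (SE 0.12). Dpp4 differed by -1.09 in KO, which passed, and by -0.25 in WT (limma adjusted p = 0.53), with an interaction adjusted p of 0.33. Between genotypes in normal HSCs Dock2, an activator of RAC proteins downstream of chemokine receptors, was lower in KO (-0.27, SE 0.045, limma adjusted p = 0.012), and Rgs18, a regulator that damps G protein signals, was higher (0.34, SE 0.068, limma adjusted p = 0.029). Without KO normal library A Dock2 was at -0.29 and still called, while Rgs18 was not (0.31, limma adjusted p = 0.095). Dock2 was not called without WT normal library A or B, and Rgs18 held with 3 of 10 libraries left out in turn. Averaged over both conditions Dock2 was also lower in KO (-0.23, SE 0.036, limma adjusted p = 0.010), a call that held with 9 of 10 libraries left out in turn. So was Tln1 (-0.22, SE 0.041, limma adjusted p = 0.024), a call that held with 4 of 10. In stressed HSCs alone the Tln1 difference was -0.097 (SE 0.064, limma adjusted p = 0.72) and was not called. In the interaction limma called 0 of the 123 genes (all genes 0.0198%), and 20 had an unadjusted p under 0.05 (all genes 9.15%). Lama5, which encodes a laminin alpha chain, had the smallest p of these (2.59, SE 0.47, limma adjusted p = 0.098). In WT HSCs it fell by 1.80 with stress (SE 0.33, limma adjusted p = 0.013), a call lost without WT stressed library A (-1.28, limma adjusted p = 0.092) or WT normal library A or B.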

How the data were processed

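Reads of the 10 HSC libraries were handled with Bowtie2 and featureCounts on mm10, per the submitters' processing notes. Tool versions are not given in the sources used here. The authors deposited log2 CPM values; limma voom is named only in the title of their table, and the filter that chose its genes is not stated. Sorted values nearly coincide in all libraries, so the deposited log2 values had been quantile normalized. Library depth was derived from the spacing of low values (levels of 10 to 100 reads). Strand use in counting is not given in the sources used here.

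From these values, genes above 0 in at least 2 libraries were fitted with limma 3.58.1 in R 4.3.3 (4 group means, 10 libraries, 6 residual degrees of freedom, variance trend), with Benjamini-Hochberg adjustment over all 15143 genes and a threshold of 0.05. The fit was also run on simulated data with independent noise and no outlying libraries, with planted changes larger than most differences of the 10 genes. That run does not show how reliably smaller changes are found in these libraries. Lengths came from GENCODE vM21 as the union of exons; 9 of 11 versioned gene IDs (the 10 genes and Id1) were identical and the others matched without version. The 10 genes and the lists were chosen with earlier results of these data known. Named beside them were, for each comparison, up to 8 called list genes with the smallest p, the gene with the smallest p of a list without calls, and for each receptor the 3 most correlated genes. Itgam and, for the averaged stress comparison, Pxn, Ptk2b, Fyn, Lyn, Itga9, Itgb5, Cd9, Cd34, Cd53, Cd81, Cd82, Jam3, Arrb2, Rac2, Dpp4 and Thbs1 fall outside this rule and were chosen after their values were seen. Alternatives covered variance moderation, filters, a pseudocount of 1 CPM, scaling (library medians, or trimmed-mean (TMM) factors computed in R), library weights, a replicate block, the groups in the fit, the threshold and each library left out; leaving out libraries for the called list genes was added after seeing the data. Some genes of the lists are not reported here.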

Additional observations from a re-analysis of the deposited data

Results flagged for a closer look

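Itga4 and Itga6 were the receptor genes whose groups moved in opposite ways without overlap. For Itga4 both stressed libraries lay below all normal ones in WT and above all normal ones in KO, and the difference of the 2 changes was 0.52 (SE 0.12). For Itga6 all KO normal libraries lay below the WT normal ones and both KO stressed libraries above the WT stressed ones, with a difference of 0.51 (SE 0.12). The interaction did not pass for either (limma adjusted p = 0.22 for both). Over alternatives the adjusted p reached 0.13 for Itga4 and 0.12 for Itga6 at the lowest. No formal test for outlying samples was made within these groups of 2 or 3 libraries. Library positions in the principal component analysis and fits with a library left out are given above.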

How the results depend on the processing

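Counts of receptor genes called between KO and WT, in either condition or averaged, and for the interaction stayed at 0 in each alternative run. For stressed against normal in WT the count of 0 became 1 (Itgb2) with only the compared groups fitted or a threshold of 0.1, and 0 to 1 with a library left out (1 without KO normal A). For KO the count of 1 became 0 with no variance trend, 2 with library weights or a threshold of 0.1, and 0 to 3 with a library left out (3 without KO normal A: Itga6, Itgal and Itgb2). For the average of both genotypes the count of 2 became 0 with no trend, 1 with no filter on low values, 0 with a replicate block, 3 at a threshold of 0.1 (with Itga6), and 0 to 3 with a library left out (0 without KO stressed A). Under the block the rise of Itgb2 was 0.60 (limma adjusted p = 0.063) and that of Cd47 0.12 (0.081); the block changed no other call of the 10 genes. Library letters showed no sign of pairing. Deviations from group means correlated between -0.024 and 0.038 for 13 pairs of libraries with the same letter and between -0.038 and 0.040 for 24 with different letters. In the groups of 2 libraries the deviations of A and B are exact opposites. The 2 ranges therefore partly mirror each other, and the comparison cannot exclude pairing. Of 1440 values of single genes under alternatives 1374 kept their direction and side of the threshold, 18 lost and 11 gained a call, and 37 changed sign while not called in either setting; no called value changed sign. Counts over all genes ranged from 45 to 400 (236 as reported) for KO against WT in normal, 0 to 51 (22) in stressed, 251 to 872 (500) and 249 to 1067 (682) for stress in WT and KO, 1 to 26 (3) for the interaction, 22 to 287 (162) for the genotype average and 773 to 1891 (1256) for the stress average. Where leaving out a library left 1 in a group, that library was assumed to vary like the others. The cause of these shifts was not tested. Precision limits the scarcest transcripts most: the 95% interval for Itgal in stressed KO against stressed WT HSCs runs from 0.53-fold to 1.75-fold.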
